A study of Mus musculus with 12 samples.

Results

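The 9 genes Tcf7, Lef1, Gata3, Bcl11b, Satb1, Ets1, Tbx21, Bcl6 and Myb, which encode transcription factors that act in T lymphocytes, were selected by symbol from the 41128 genes of the expression table, and all 9 were found. Their RNA was measured in 12 libraries, all from splenic lymphocytes of 6 to 8 week old C57BL/6J mice. No mutant, transgene or treatment is named in the labels. The libraries form 4 groups of 3, namely resting B cells without surface CD43 from females and from males, numbered 1 to 3 in each sex, and naive CD4+ CD62L+ T cells from females and from males, numbered 4 to 6 in each sex. The T cells were depleted of other cells on magnetic beads, the CD25+ cells among them, and then sorted for high CD62L, low CD44 and absent CD25. Replicates are described as pools of mice, so p-values measure the spread between pools. The data allow 3 questions for these genes, namely how their RNA differed between B and T cells, whether it differed between the sexes, and whether a sex difference depended on the cell type.

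T cell precursors become T cells when Notch signalling switches on TCF1, the protein of Tcf7, which with its relative LEF1 opens chromatin at T cell genes, and when GATA3 and BCL11B then close off other fates. SATB1 and ETS1 organise chromatin and promoters in lymphocytes more widely. T-bet (Tbx21), GATA3 and BCL6 later direct helper T cells to the Th1, Th2 and follicular programmes. BCL6 also acts as a repressor of transcription in germinal centre B cells, and MYB acts in blood progenitors and early lymphocytes.

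Levels are given as adjusted TPM, a length-corrected share of transcripts that the authors adjusted in a way not given in the sources used here. Sequencing depth is unknown, and totals of adjusted TPM ran from 561020 to 1453940 per library. Between 11122 and 11543 genes per library reached 1. Each value has a deposited lower and upper bound. Upper bounds exceeded lower bounds by a median factor of 1.3 to 1.55 for genes from 1 to 10, but 116 to 214 for genes from 0.01 to 0.1. Values below 0.1 therefore say little beyond being low. The 8 T cell markers summed to 1430 to 1770 in T and 1.22 to 1.77 in B cell libraries, and the 7 B cell markers to 2790 to 3260 in B and 0.897 to 5.86 in T cell libraries, so the defining genes followed the labelled cell types. Monocyte and neutrophil markers summed to 8.81 to 13.3 in B and 1.03 to 3.93 in T cell libraries, and plasma cell markers to 99.8 to 184 and 24.8 to 31.3.

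The promoter table of RefSeq (GRCm38.p6) holds 8 of the 9 genes, Ets1 being the one without an entry. The 250 bases before the start were searched on both strands for letters bound by the factors themselves or their partners. These were CTTTGAA or CTTTGAT for TCF and LEF proteins, CCGGAAG for ETS, TGTGGT for RUNX, AGATAA for GATA, and TTCNNNGAA for STAT proteins, the last chosen after the sequences had been seen. Of all 32851 windows in the table, 7.48% held the TCF/LEF letters, 6.91% the ETS, 14% the RUNX, 9.99% the GATA and 7.02% the STAT letters. Among the 8 genes the TCF/LEF letters occurred in 1, Bcl11b, and the STAT letters in 1, Bcl6, while the ETS, RUNX and GATA letters occurred in 0. Not every window need be a promoter. The Gata3 window lies inside its GENCODE gene model, with the RefSeq start 11434 bases from the GENCODE start. The Tcf7 window holds an atg that opens a reading frame without a stop up to its last base. Absence of the letters there therefore does not speak for the promoters of Gata3 and Tcf7. The Bcl11b match lies at bases -89 to -83 before the RefSeq start and inside the 5′ end of the longer GENCODE gene model, in chr12:108003487-108003513 on the minus strand. The Bcl6 match lies at bases -118 to -110, in a window at chr16:23988853-23989102 on the minus strand that ends just before the first base of the gene. The windows of Tbx21 (chr11:97115332-97115581, minus strand) and Lef1 (chr3:131110073-131110322, plus strand) held none of these letters and are shown because Tbx21 is with Bcl6 the other gene higher in B cells, and Lef1 is the gene whose balance with Tcf7 was compared. Capitals mark the matched letters, and a match describes sequence and not binding.
Bcl11b: aggccaagcaCTTTGAAgaagtgtgag
Bcl6: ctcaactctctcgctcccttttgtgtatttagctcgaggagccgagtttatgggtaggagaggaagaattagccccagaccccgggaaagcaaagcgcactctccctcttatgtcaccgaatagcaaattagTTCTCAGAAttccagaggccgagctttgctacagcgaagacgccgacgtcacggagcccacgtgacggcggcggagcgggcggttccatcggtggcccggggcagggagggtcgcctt
Tbx21: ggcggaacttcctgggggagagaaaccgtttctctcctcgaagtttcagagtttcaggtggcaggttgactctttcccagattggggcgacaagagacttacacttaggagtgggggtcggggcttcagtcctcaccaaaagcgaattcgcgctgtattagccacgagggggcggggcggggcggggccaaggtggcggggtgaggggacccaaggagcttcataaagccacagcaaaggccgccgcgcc
Lef1: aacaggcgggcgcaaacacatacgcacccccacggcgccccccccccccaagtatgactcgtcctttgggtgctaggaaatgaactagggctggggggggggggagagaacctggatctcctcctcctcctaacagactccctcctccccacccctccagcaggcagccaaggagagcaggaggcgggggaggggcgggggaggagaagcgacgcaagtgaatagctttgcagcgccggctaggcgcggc

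Between B and T cells all 9 genes differed past the threshold (limma on log2(adjusted TPM + 1), Benjamini-Hochberg adjusted p under 0.05). Higher levels in T cells were found for 7 of them and higher levels in B cells for 2, Tbx21 and Bcl6. Of the 12520 genes tested, 73.0% passed the same threshold, 31.4% higher in B and 41.6% higher in T cells, so passing alone does not set these genes apart. The libraries of the cell types did not overlap for 6 genes higher in T and 2 higher in B cells, against 53.9% of tested genes without overlap (29.7% higher in T and 24.2% higher in B cells). Tcf7, Gata3, Bcl11b and Tbx21 had a mean of 1 or more in 1 cell type only and passed the filter on low values through it, so they had to differ. Of the 5 others, Lef1, Satb1, Ets1, Bcl6 and Myb, all 5 passed the threshold, against 68.8% of the 10339 tested genes with a mean of at least 1 in both cell types. Of the calls over all tested genes 43.0% were higher in B cells as deposited, but 71.6% once every library was rescaled to the same total, which moved the median of all log2 differences from -0.09 to 0.26. The share was 66.4% after rescaling to the same protein-coding total, 50.3% with median-ratio scaling and 42.4% after quantile normalization. Protein-coding genes held from 38.5% of the total in male T cell 6 to 68.0% in female B cell 3. As a description, the median absolute log2 difference as deposited was 1.85 over the 5 genes at 1 or more in both cell types and 0.325 over the 10339 tested genes of that kind. In these bulk samples, fewer cells of a type and less RNA per cell cannot be told apart.

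**Figure D1:**
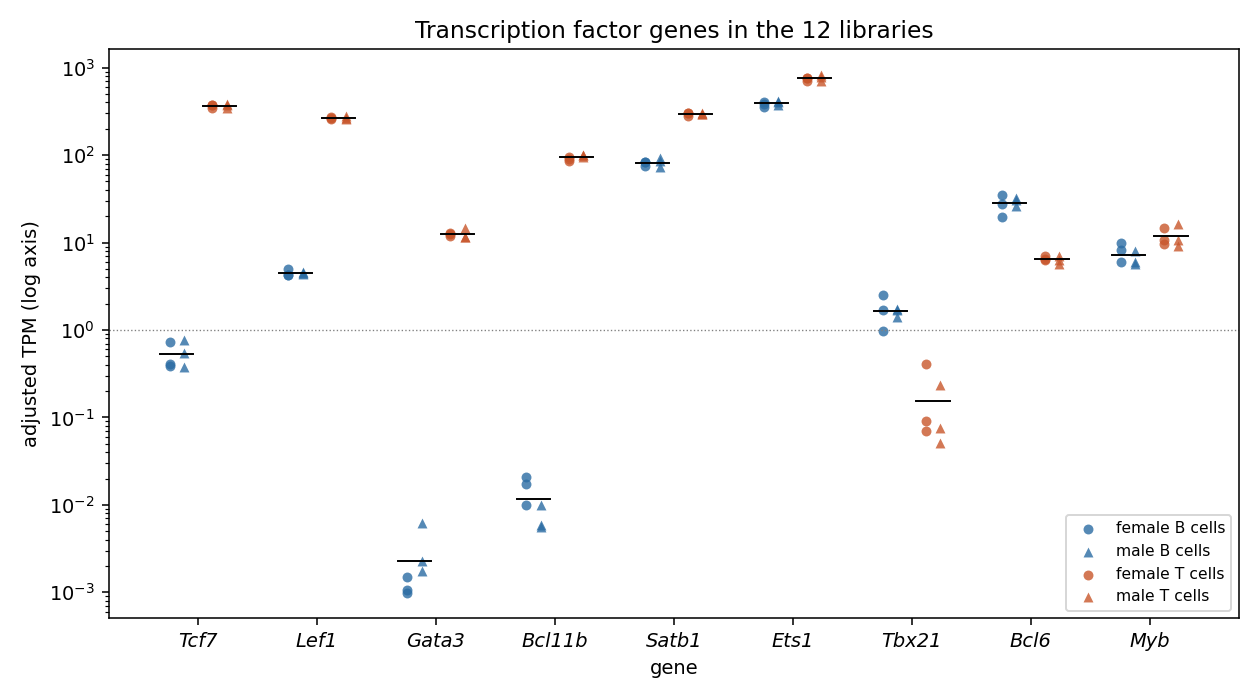
Adjusted TPM of the 9 genes (log axis) in each of the 12 libraries, with B and T cells and both sexes marked. Ets1 is the highest of the 9 in every library, and Myb is the only gene whose B and T cell libraries overlap.

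Tcf7 encodes TCF1, the factor that Notch induces in thymic progenitors and that naive T cells keep. Its gene (ENSMUSG00000000782) lies at chr11:52252371-52283014 on the minus strand of GRCm38. In T cells it was measured at 377.2, 378.5 and 344.1 in females 4, 5 and 6 and at 371.5, 387.6 and 342.1 in males 4, 5 and 6. In B cells it was measured at 0.406, 0.385 and 0.733 in females 1, 2 and 3 and at 0.541, 0.764 and 0.376 in males 1, 2 and 3. Every B cell library was thus far below every T cell library, and within T cells both libraries numbered 6 were the lowest. The means were 366.8 ± 19.12 in T and 0.534 ± 0.177 in B cells (SD, n = 6 each), a log2 difference of -7.91 (SE 0.08, limma adjusted p = 1.32e-16). Even the lowest T cell lower bound was 339 times the highest B cell upper bound.

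Lef1 encodes LEF1, which binds the same DNA letters as TCF1 (ENSMUSG00000027985, chr3:131110471-131224356, plus strand). It was at 256.6, 269.3 and 273.6 in female and 268.6, 261.9 and 282.7 in male T cells. B cells held 4.26, 4.29 and 4.93 in females and 4.61, 4.32 and 4.44 in males. It was thus above Tcf7 in every B cell library, and the 6 B cell libraries lay close together. The means of 268.8 ± 9.08 and 4.47 ± 0.255 (SD, n = 6 each) differ by 60.1 times, or -5.62 on the log2 scale (SE 0.05, adjusted p = 5.44e-17).

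Because TCF1 and LEF1 act on shared targets, their balance was compared inside each library, where scaling between libraries plays no part. The Tcf7 to Lef1 ratio was 0.0847 to 0.177 in B cells and 1.21 to 1.48 in T cells, so Lef1 was the more abundant of the pair in all 6 B cell libraries and Tcf7 in all 6 T cell libraries. The mean log2 ratios were -3.13 ± 0.43 and 0.45 ± 0.12 (SD, n = 6 each). The difference of -3.58 is given as a description, since Tcf7 was near absent in B cells and the ratio there largely restates its level. With a pseudocount of 1 added to both genes the difference was -2.29.

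Gata3 encodes the factor required for CD4+ T cell development and for Th2 cells (ENSMUSG00000015619, chr2:9857078-9890034, minus strand). It was at 12.46, 11.84 and 12.71 in female and 14.58, 11.48 and 11.53 in male T cells, and at 0.000993 to 0.00625 in the B cell libraries with a median of 0.00164. Gata3 was the lowest in T cells of the 6 genes without overlap that were higher there, and held the 85.24th to 87.29th percentile of genes in T cell libraries. Its log2 difference was -3.74 (SE 0.07, adjusted p = 2.44e-14), a value that the pseudocount of 1 understates because the B cell level is so low.

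Bcl11b encodes a zinc finger repressor that locks T cell precursors into their lineage (ENSMUSG00000048251, chr12:107910403-108003602, minus strand). T cells held 94.49, 86.74 and 89.34 in females and 99.38, 100.6 and 95.06 in males, with a mean of 94.26 ± 5.43 (SD, n = 6). B cells held 0.00556 to 0.0211 with a median of 0.00995, where upper and lower bounds typically differed 15.0 times. The log2 difference was -6.56 (SE 0.05, adjusted p = 2.88e-17), and the lowest T cell lower bound was still 1570 times the highest B cell upper bound. Its family relative Bcl11a, a factor needed to make B cells, had the opposite pattern at 86.08 ± 7.34 in B and 0.0465 ± 0.0667 in T cells (SD, n = 6 each, log2 difference 6.38, SE 0.07, adjusted p = 3.07e-16). Each cell type thus carried 1 gene of the pair, at 75.66 or more, with the other at 0.172 or less, in every library. Both genes passed the filter on low values through 1 cell type only, so they had to differ.

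Satb1 encodes a chromatin organiser that naive T cells hold at high levels (ENSMUSG00000023927, chr17:51736187-51833290, minus strand). In T cells it was at 277.1 to 305.3 with a median of 300.3, and in B cells at 73.07 to 92.46 with a median of 83.34. It was therefore an abundant transcript in both cell types, at the 97.7th percentile of genes or above in every library. The means of 297.1 ± 10.38 and 82.14 ± 7.17 (SD, n = 6 each) differ by 3.62 times, or -1.85 on the log2 scale (SE 0.07, adjusted p = 2.78e-11).

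Ets1 encodes an ETS family factor that acts in T, B and NK cells (ENSMUSG00000032035, chr9:32636221-32757820, plus strand). T cells held 762.0, 761.6 and 712.0 in females and 817.9, 780.6 and 700.3 in males. B cells held 409.4, 353.0 and 389.3 in females and 406.7, 376.0 and 415.5 in males. It was the highest of the 9 genes in both cell types, ranking 121st to 142nd of all genes in T and 154th to 197th in B cell libraries. The means were 755.7 ± 43.68 in T and 391.6 ± 23.89 in B cells (SD, n = 6 each), a ratio of 1.93 and a log2 difference of -0.95 (SE 0.07, adjusted p = 1.01e-07). Rescaling every library to the same total reduced the log2 difference to -0.56 (adjusted p = 0.0324).

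The neighbour of Ets1 on chromosome 9, 93359 bases away, is Fli1, another ETS factor of blood cells. Fli1 was higher in B cells, with 116.3 ± 10.3 in B and 66.67 ± 4.2 in T cells (SD, n = 6 each, log2 difference 0.79, adjusted p = 1.31e-07). Inside each library the ratio of Ets1 to Fli1 was 2.98 to 3.59 in B cells and 10.4 to 12.2 in T cells. This ratio was computed after both levels had been seen and is given as a description.

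**Figure D2:**
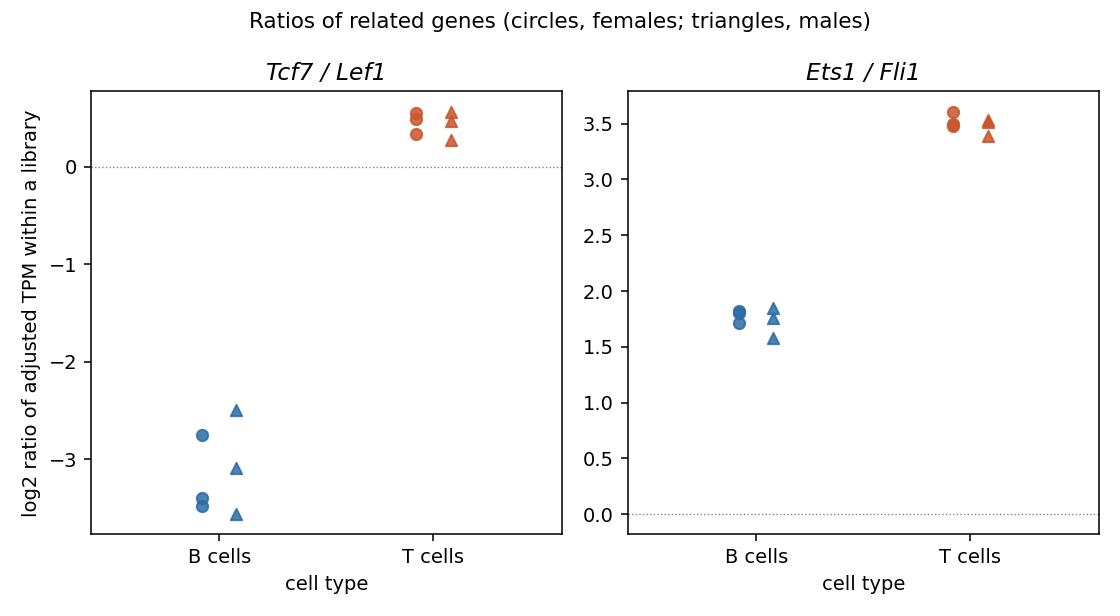
Log2 ratio of Tcf7 to Lef1 (left) and of Ets1 to Fli1 (right) inside each library, with B and T cells on the x axis, circles for females and triangles for males. The B and T cell libraries are separate in both panels, and the Tcf7 to Lef1 ratio lies below 0 in all 6 B cell libraries and above 0 in all 6 T cell libraries.

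Tbx21, which encodes T-bet, the Th1 factor that NK cells and some B cells also carry, was higher in B cells (ENSMUSG00000001444, chr11:97098071-97115331, minus strand). B cells held 0.970, 2.50 and 1.68 in females and 1.72, 1.68 and 1.40 in males. T cells held 0.0701, 0.0902 and 0.407 in females and 0.0508, 0.0762 and 0.237 in males. No T cell library reached the lowest B cell library, and the T cell libraries numbered 6 were the highest of their cell type. The log2 difference was 1.19 (SE 0.13, adjusted p = 2.4e-06), with means of 1.66 ± 0.501 and 0.155 ± 0.141 (SD, n = 6 each).

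Markers of other lymphocytes that carry T-bet were read beside it. Of the CD8 T cell markers, Cd8a was 0.591, 2.31 and 1.09 in female and 1.40, 1.43 and 1.36 in male B cells against 0.0768 to 0.256 in T cells. The other CD8 marker, Cd8b1, went the other way, at 0.0153 to 0.0804 in B and 5.25 to 8.11 in T cells. The B cell library lowest in Tbx21, female 1, was also the lowest in Cd8a, and the highest, female 2, the highest, while the bounds of Cd8b1 were too wide there to order the libraries. The 8 T cell markers summed to no more than 1.77 in those libraries, and the 2 CD8 markers to 0.607 to 2.32 in B and 5.48 to 8.27 in T cells. The 6 NK and innate lymphoid markers summed to 0.68 to 2.47 in B and 16.5 to 24.6 in T cells, the latter mainly Klrd1. The NK cell receptor gene Ncr1 was 0.0264 to 0.584 in B cell libraries against 0.0137 or less in those of T cells. The part of such cells in the Tbx21 difference was not tested.

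Bcl6 encodes a repressor of transcription that acts in germinal centre B cells and in follicular helper T cells (ENSMUSG00000022508, chr16:23965052-23988852, minus strand). B cells held 27.3, 34.76 and 19.78 in females and 25.87, 32.49 and 30.93 in males. T cells held 6.99, 6.28 and 6.42 in females and 5.69, 6.99 and 6.38 in males. All B cell libraries thus lay above all T cell libraries, and their spread was wider. The means of 28.52 ± 5.39 and 6.46 ± 0.489 (SD, n = 6 each) differ by 4.42 times, or 1.97 on the log2 scale (SE 0.11, adjusted p = 4.55e-09).

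Germinal centre markers were present in the B cell libraries and varied more than Bcl6 did. Gcsam, a signalling adaptor of germinal centre B cells, was 1.31, 4.69 and 1.61 in female and 2.37, 2.22 and 0.646 in male B cells. S1pr2, a receptor that holds B cells in the germinal centre, was 0.798, 3.02 and 1.18 in females and 1.81, 1.87 and 0.530 in males. Female 2 was the highest library for both markers and for Bcl6, but male 3, the lowest for both, held 30.93 of Bcl6, the third highest value. In T cells S1pr2 was 1.71 to 2.3, within its B cell range, and the marker Fas was 14.24 to 16.3 against 2.19 to 4.38 in B cells. The part of germinal centre cells in the Bcl6 difference was not tested.

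Myb encodes the factor of blood progenitors (ENSMUSG00000019982, chr10:21124935-21160984, minus strand). T cells held 10.68, 9.73 and 14.51 in females and 9.01, 10.6 and 16.46 in males. B cells held 8.24, 5.98 and 9.81 in females and 5.71, 8.00 and 5.95 in males. The ranges overlap, since female B cell 3 was above the lowest T cell libraries. The means of 11.83 ± 2.96 and 7.28 ± 1.66 (SD, n = 6 each) gave a log2 difference of -0.63 (SE 0.16, adjusted p = 0.00293), the smallest of the 9. It did not pass the threshold when every library was rescaled to the same total (-0.28, adjusted p = 0.206) or to the same protein-coding total (-0.37, adjusted p = 0.0617). In females alone it was -0.49 (adjusted p = 0.0683) and in males alone -0.76 (adjusted p = 0.00951), and females and males did not differ past the threshold in this effect (adjusted p = 1).

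**Figure D3:**
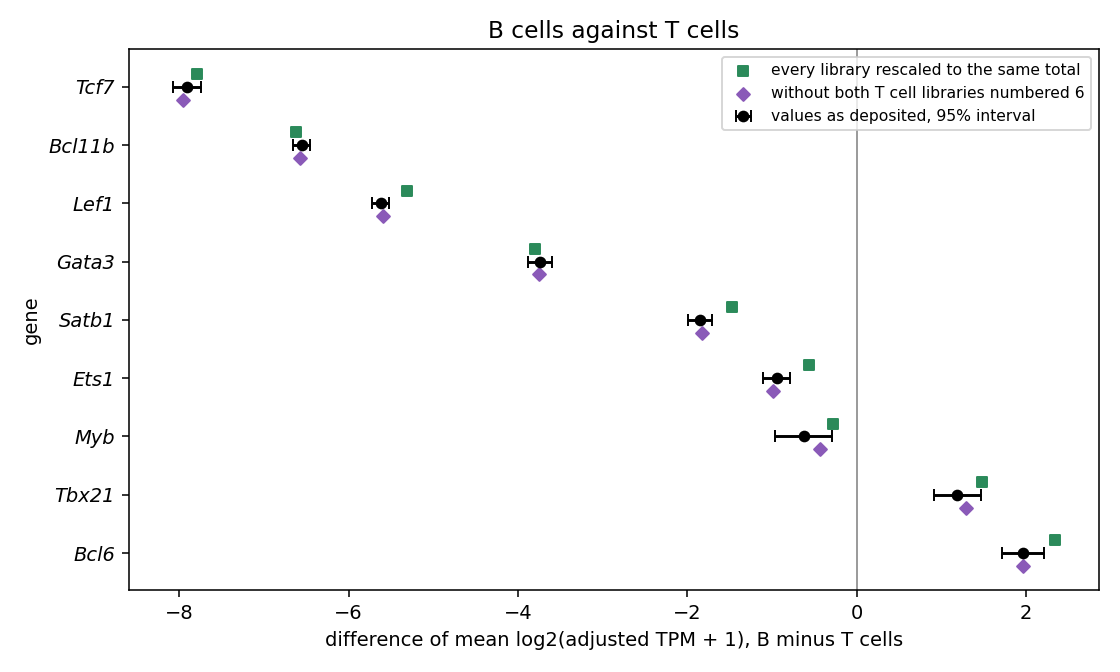
Difference of mean log2(adjusted TPM + 1), B minus T cells, for the 9 genes, with the 95% interval from limma (bars), after rescaling every library to the same total (squares) and without both T cell libraries numbered 6 (diamonds). Values left of 0 are higher in T cells; 7 genes lie left and 2 right of 0 under all 3 settings, with Myb nearest to 0.

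The order of the levels differed between the cell types. In T cells it was Ets1, Tcf7, Satb1, Lef1, Bcl11b, Gata3, Myb, Bcl6 and Tbx21. Satb1 and Lef1 had overlapping ranges, although Satb1 was above Lef1 in 6 of 6 libraries, and so did Gata3 and Myb, with Gata3 above in 4 of 6. In B cells the order was Ets1, Satb1, Bcl6, Myb, Lef1, Tbx21, Tcf7, Bcl11b and Gata3, and only the last pair of neighbours overlapped. The 9 genes together summed to 1750 to 1880 in T and 483 to 544 in B cell libraries, of which Ets1 was the largest part in each.

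To place the low values, each gene was expressed as a percentage of its mean in the higher cell type, beside markers that the lower cell type should lack. As means over 6 libraries, T cell markers in B cells lay between 0.000132% for Themis and 0.276% for Cd247 of their T cell means. Means of B cell markers in T cells reached at most 0.189%, for Cd79a. In single libraries the highest values were 0.319% for Cd247 in female B cell 1 and 0.322% for Cd79a in female T cell 6. The B cell levels of Tcf7 (median 0.129%), Gata3 (0.0132%) and Bcl11b (0.0106%) lay within the range of the T cell markers in 6 of 6 libraries. Lef1, at 1.59% to 1.83%, lay above all 8 T cell markers in 6 of 6 B cell libraries. Tbx21 in T cells had a median of 5.02%, with 3.07% in the lowest and 24.6% in the highest library. The remaining genes had larger shares, with medians of 28% for Satb1, 52.7% for Ets1 and 59.1% for Myb in B cells and 22.4% for Bcl6 in T cells.

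**Figure D4:**
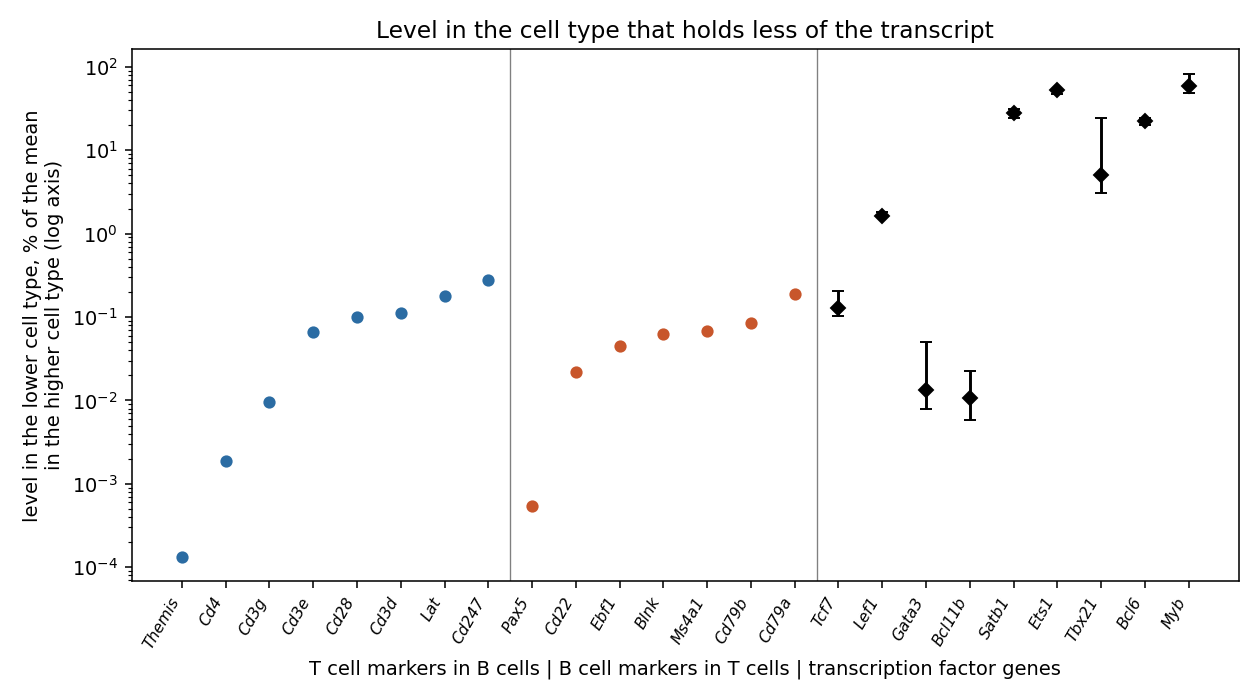
Level in the lower cell type as a percentage of the mean in the higher one (log axis) for 8 T cell markers in B cells, 7 B cell markers in T cells and the 9 transcription factor genes. Points of markers are means, diamonds are medians over 6 libraries and bars run from the lowest to the highest library; Tcf7, Gata3 and Bcl11b sit at marker level, and Lef1 lies above every marker.

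Among relatives of these factors, 10 of 18 genes were tested, of which 5 were higher in B and 4 in T cells. Over all tested genes 31.4% were higher in B and 41.6% in T cells. Besides Bcl11a, Mybl1, the MYB relative of germinal centre B cells, was higher in B cells at 3.22 ± 1.44 against 0.254 ± 0.0783 (log2 difference 1.67, adjusted p = 1.01e-05). Higher in T cells were the erythroid factor Gata1 at 2.46 ± 0.457 against 0.0804 (-1.67, adjusted p = 1.78e-09) and the T-bet relative Eomes at 1.71 ± 0.753 against 0.0339 (-1.35, adjusted p = 3.25e-06). Summed erythroid markers were 0.611 to 196 in B and 2.04 to 43.1 in T cell libraries, and their part in Gata1 was not tested. Tbx21 and Eomes, both T-box factors, thus lay on opposite sides. Bcl11a, Mybl1, Gata1 and Eomes passed the filter on low values through B or through T cells alone, so they had to differ. The ETS relative Gabpa was 27.76 ± 1.97 in B and 28.24 ± 2.05 in T cells (adjusted p = 0.74). The other TCF genes, Tcf7l1 and Tcf7l2, were at most 0.041 in every library. After rescaling to the same total 5 relatives were higher in B and 2 in T cells. Under that setting 5087 of all 13016 tested genes were higher in B and 2021 in T cells.

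TCF and LEF proteins switch genes on with β-catenin and off with Groucho co-repressors. Of 11 such partner genes, 8 were tested, 1 of them higher in B and 4 in T cells, against 31.4% and 41.6% of all tested genes. The change was largest for Aes, a short Groucho protein, at 202.9 ± 20.95 in T and 80.59 ± 9.33 in B cells (log2 difference -1.32, adjusted p = 3.15e-08), followed by Pygo2, a co-activator, at 22.69 against 16.25 (-0.46, adjusted p = 7.78e-06). Bcl9, which links β-catenin to Pygo proteins, was higher in B cells at 5.98 against 3.23 (0.72, adjusted p = 2.37e-06). Ctnnb1 itself was 106.7 ± 6.55 in B and 104.1 ± 5.67 in T cells (adjusted p = 0.593), with Bcl9l at 6.91 and 6.07 (adjusted p = 0.0823). With every library rescaled to the same total, 2 of the 8 were higher in B and 1 in T cells.

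All 11 cofactors and co-acting regulators were tested, with 4 higher in B and 7 in T cells, against 31.4% and 41.6% of all tested genes. Tox, a nuclear factor of CD4+ T cell development, was 11.98 ± 1.06 in T and 0.0558 in B cells (log2 difference -3.62, adjusted p = 3.02e-14), and Notch1, the receptor upstream of Tcf7, 24.74 ± 1.48 against 5.96 (-1.89, adjusted p = 2.19e-11). Tox passed the filter on low values through T cells alone, so it had to differ. Among the cofactors higher in B cells was Runx3, a factor of CD8 T cells, at 10.24 against 7.08 (0.47, adjusted p = 2.11e-05). After rescaling to the same total 4 were higher in B and 4 in T cells.

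Of 14 genes that take part in the helper T cell programmes of T-bet, GATA3 and BCL6, 8 were tested. Higher in B cells were 2 and in T cells 4, against 31.4% and 41.6% of all tested genes. The follicle homing receptor Cxcr5 was 149.6 ± 17.53 in B and 1.78 ± 1.1 in T cells (log2 difference 5.84, adjusted p = 2.99e-11), and the T-bet target Cxcr3 0.915 against 0.315 (0.53, adjusted p = 0.0184). Sh2d1a, an adaptor of T and NK cells, was 41.43 ± 3.95 in T and 0.000334 in B cells (-5.40, adjusted p = 1.07e-15) and the co-stimulator Icos 13.13 ± 2.24 against 0.153 (-3.61, adjusted p = 1.91e-12). Sh2d1a and Icos passed the filter on low values through T cells alone and had to differ, and Cxcr3 passed it through B cells alone. For Il4ra (80.32 and 75.8, adjusted p = 0.374) and Stat6 (71.48 and 71.43, adjusted p = 0.993), which signal for interleukin-4 in both cell types, no difference past the threshold was found. After rescaling to the same total 3 were higher in B and 3 in T cells.

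All 5 genes of naive T cell homing and survival were tested, with 4 higher in T and 0 in B cells, against 41.6% and 31.4% of all tested genes. Il7r, the interleukin-7 receptor, was 217.9 ± 7.28 in T and 0.419 in B cells (log2 difference -7.28, adjusted p = 7.3e-16), and the lymph node homing receptor Ccr7 233.2 ± 22.66 against 85.17 ± 11.93 (-1.45, adjusted p = 4.13e-08). Il7r passed the filter on low values through T cells alone, so it had to differ. Klf2, a factor of quiescence, was 173.9 in B and 170.5 in T cells (adjusted p = 0.853). After rescaling to the same total 3 were higher in T and 0 in B cells.

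For the 3 genes with the highest T cell means, the tested genes nearest over all 12 libraries were sought by Euclidean distance in log2(adjusted TPM + 1). Npm1 (distance 0.519), a nucleolar protein at 385.3 in B and 706.1 in T cells, and Eef1b2 (0.73), a translation factor, were nearest to Ets1. Trac (1.48) and Trbc1 (1.49), the T cell receptor constant genes, were nearest to Tcf7. Smc4 (0.942), a condensin subunit, and Sept1 (1.08), a septin, were nearest to Satb1.

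The sexes were set against each other in B cells and in T cells separately. The column names carry a further digit whose meaning is not given. Female B cells share it with male T cells, and male B cells share it with female T cells. Sex within a cell type cannot be told apart from it, nor can the difference between the sex effects. Of the 9 genes 0 passed the threshold in B cells, against 0.144% of tested genes (0.0559% higher in females, 0.0879% higher in males), and 0 in T cells, against 0.104% (0.0479% and 0.0559%). At an unadjusted p under 0.05 the numbers over all tested genes were 373 in B and 319 in T cells, with 0 of the 9 in either. The largest female minus male log2 differences in B cells were 0.24 for Myb (95% interval -0.23 to 0.72) and -0.15 for Bcl6. In T cells they were -0.12 for Bcl11b (95% interval -0.27 to 0.02, unadjusted p = 0.0842) and 0.08 for Tbx21. The widest 95% half-interval was 0.479 in either cell type, so a smaller difference was not detectable in that gene.

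Bcl11b in T cells was the only sizeable value whose sexes did not overlap, at 86.74 to 94.49 in females and 95.06 to 100.6 in males, against 8.49% of tested genes without overlap. Gata3 and Bcl11b in B cells also did not overlap, against 7.20% of tested genes, but at levels of at most 0.0211. The difference between the sex effects of the 2 cell types was past the threshold for 0 of the 9 genes and for 0 of all tested genes by limma, with 295 of all and 0 of the 9 at an unadjusted p under 0.05. Its values ran from -0.19 for Bcl6 to 0.27 for Myb, with a widest half-interval of 0.677.

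The T cell libraries numbered 6, 1 female and 1 male, stood apart from those numbered 4 and 5. For the 9 genes, both libraries lay above the other 4 in 3 cases and below in 2, against 17.0% and 18.6% of tested genes. Myb was 14.51 and 16.46 there and 9.01 to 10.68 in the other 4, Tbx21 0.407 and 0.237 against 0.0508 to 0.0902, and Lef1 273.6 and 282.7 against 256.6 to 269.3. Tcf7, at 344.1 and 342.1 against 371.5 to 387.6, and Ets1, at 712.0 and 700.3 against 761.6 to 817.9, were the ones below. Gata3, Bcl11b, Satb1 and Bcl6 overlapped.

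Markers of regulatory and activated T cells moved with them. Il2ra, which encodes CD25, the protein the sort removed, was 4.12 to 4.999 in the libraries numbered 6 and 0.158 to 0.340 in the others. Ikzf2 was 11.25 to 13.4 against 1.07 to 2.07, and Foxp3, the factor of regulatory T cells, 1.82 to 2.57 against 0.440 to 0.735. Of the 5 markers 4 lay above, with the list summing to 95 to 120 against 51.4 to 63.8. Of the 8 T cell markers 6 lay below, and of the 5 naive T cell genes Ccr7, S1pr1 and Klf2. The B cell markers summed to 2.44 to 5.86 against 0.897 to 1.95. Their part in the values of Myb, Tbx21, Tcf7, Ets1 and Lef1 was not tested. Without both libraries all 9 genes stayed past the threshold between B and T cells, with Myb at -0.43 (adjusted p = 0.013) and Tbx21 at 1.29.

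**Figure D5:**
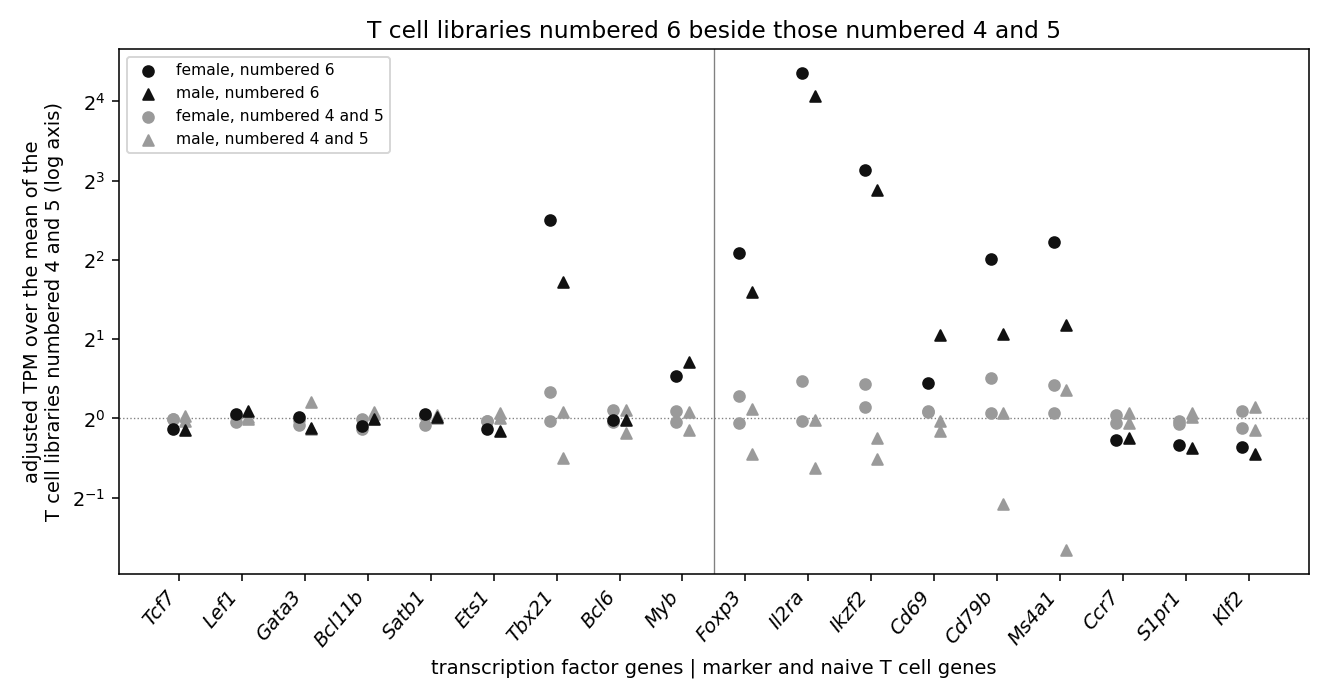
Adjusted TPM over the mean of the T cell libraries numbered 4 and 5 (log axis) for the 9 transcription factor genes and for marker and naive T cell genes, with black for the libraries numbered 6, grey for the others, circles for females and triangles for males. Tbx21, Myb, Foxp3, Il2ra and Ikzf2 are raised in both libraries numbered 6.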

How the data were processed

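RNA of 12 libraries was sequenced after removal of ribosomal RNA, with strand-specific libraries. The submitters' processing notes name Trim Galore, FastQC, STAR and the build mm10. How genes were quantified, how values were adjusted and which level the bounds have are not given in the sources used here. The values deposited by the authors are a signal named adjusted TPM, with a lower and an upper bound, for 41128 genes. These values differ from read counts, none of them is 0, and depth is unknown. ERCC spike-ins were not analysed here. Some label fields name genomic DNA, although the protocols are those of RNA sequencing.

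Groups came from the labels. Identifiers were matched without version to GENCODE M21 of GRCm38 (40254 of 41128). Genes at 1 or more in at least 3 libraries were tested, 12520 in all. limma 3.58.1 in R 4.3.3 was fitted with a mean-variance trend to log2(adjusted TPM + 1), a pseudocount that understates changes of low genes, with 1 coefficient for each of the 4 groups and Benjamini-Hochberg adjustment over all tested genes. Every adjusted p comes from this fit unless another setting is named. Computations used Python 3.11.15, numpy 2.4.6, scipy 1.17.1, pandas 2.3.3 and matplotlib 3.10.9.

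The genes and lists were chosen with earlier results of these data known. From each list, up to 2 genes in each direction with the largest differences past the threshold and up to 2 of the highest not past it are named. A few genes of the lists are not reported here, although the rule would name them. Tcf7l1, Tcf7l2, Fli1 and single marker genes were named after their values were seen. Tests on simulated data recovered 97.7% of 200 genes changed by a log2 value of 1 for B against T cells, 92.75% and 92.2% for the sexes in B and T cells and 78.6% for the difference of sex effects. Same-numbered female and male T cell libraries deviated together (r of 0.721, 0.548 and 0.521), while in B cells r ran from -0.337 to -0.0382. The main fit held no term for the numbers and counted all libraries as separate. The simulated libraries were drawn independently too, so the recovered shares leave out deviations that same-numbered libraries have in common. Only the replicate block and the averaging of same-numbered libraries took the numbers as pairs. Alternatives were other pseudocounts, filters and scalings, no trend, a replicate block, 1 sex or cell type alone, and libraries left out.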

Additional observations from a re-analysis of the deposited data

Results flagged for a closer look

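The 6 libraries of each cell type were searched, gene by gene, for a library far from the nearest other, in 18 sets of values. Chance gives about 1 in 20 such sets. Gata3 was 0.00625 in male B cell 3, with a gap of 0.757 of the range to the nearest B cell library, at a level where the bounds give no precision. Satb1 was 277.1 in female T cell 5, with a gap of 0.671 of the range, and 296.0 to 305.3 in the other 5 T cell libraries.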

How the results depend on the processing

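Between B and T cells 8 of the 9 genes stayed past the threshold in the same direction under all 23 alternatives, and Myb under 20, with adjusted p from 0.00143 to 0.206. Among the 8, Tcf7, Gata3, Bcl11b and Tbx21 passed the filter on low values through 1 cell type only, so they had to differ. The exceptions for Myb were the rescaling to the same total (-0.28), to the same protein-coding total (-0.37) and females alone (-0.49). Of the genes named from the lists, Cxcr3 stayed past the threshold under 20 alternatives (highest adjusted p = 0.233) and Pygo2 under 21 (0.694). Bcl9l, not past it as deposited, passed under 6, Ctnnb1 and Il4ra under 2 each and Klf2 under 1. Without a filter on low values the calls numbered 24591 between B and T cells, 10985 and 10607 between the sexes in B and T cells and 11201 for the difference of sex effects, and Bcl11b in T cells became the 1 transcription factor gene past the threshold (-0.12, adjusted p = 0.0256). Rescaled to the same total, the sexes gave 44 calls in B and 26 in T cells and the difference of sex effects 20. That difference gave 1 call with a pseudocount of 0.1, after quantile normalization, after rescaling to the same protein-coding total and without both T cell libraries numbered 6, and 3 without a trend. The sexes in T cells gave 24 calls with a pseudocount of 0.1, 6 with T cell libraries alone and 7 without both libraries numbered 6. Without each replicate in turn calls ranged from 8686 to 9164 between B and T cells, from 11 to 18 and from 7 to 14 between the sexes in B and T cells, the fewest without female B cell 3 and without female T cell 5 or 6, and from 0 to 1 for their difference.

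Reversed directions concerned differences near 0 that did not pass the threshold as deposited. Gabpa was 0.348 and Stat6 0.377 after rescaling to the same total, 0.060 and 0.0848 with median-ratio scaling, 0.00527 and 0.0604 after quantile normalization, 0.252 (adjusted p = 0.00338) and 0.281 (adjusted p = 0.0263) after rescaling to the same protein-coding total, and 0.0339 and 0.0238 in males. Without both libraries numbered 6, Il4ra was -0.0227 and Klf2 -0.105, Klf2 was -0.0174 in males and Ctnnb1 -0.0314 in females. Rescaled to the same total, Bcl11b was 0.168 between the sexes in T cells and Myb -0.0638 for the difference of sex effects. Without each replicate in turn Gabpa ranged from -0.0567 to 0.00969, Stat6 from -0.0426 to 0.038, Klf2 from -0.0489 to 0.101, Bcl6 between the sexes in B cells from -0.337 to 0.0548 and for the difference of sex effects from -0.379 to 0.0121, and Tbx21 between the sexes in T cells from -0.0501 to 0.150. Over all 9 genes and both sexes' contrasts with their difference, 69 of 581 values changed sign under an alternative and 1 passed the threshold. The cause was not tested.

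No paired analysis was possible because B and T cell libraries share no number; for the sexes, the fit with a replicate block gave 14 calls in B, 10 in T cells and 0 for the difference of sex effects, with 0 of the 9 genes in each. Averaging same-numbered female and male libraries, an alternative added after seeing the data like the one without both libraries numbered 6, left all 9 genes past the threshold (Myb adjusted p = 0.0066).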

Other observations

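Mybl1, the MYB relative of germinal centre B cells, was 2.50, 5.18 and 2.78 in female B cells 1, 2 and 3 and 4.17, 3.62 and 1.06 in males 1, 2 and 3. It was highest in female 2 and lowest in male 3, as Gcsam and S1pr2 were, while Myb was highest in female 3, at 9.81. In the T cell libraries numbered 6, Eomes was 2.39 and 2.88 against 1.06 to 1.5 in the other 4, Cxcr3 0.658 and 0.660 against at most 0.176, and Cxcr5 3.39 and 2.97 against 0.932 to 1.14.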
